A study of Mus musculus with 36 samples.

Results

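The 9 genes described here are the interferon-stimulated genes Isg15, Rsad2, Irf7, Irf9, Ifit1, Ifit2, Ifit3, Ifitm1 and Ifitm3, chosen by name out of the 31102 genes that the single-cell tables list. They were followed in mouse submandibular salivary glands in which Cre recombinase driven by the keratin 14 promoter (K14-Cre) carries out 2 changes, a gain of function of β-catenin and a loss of the BMP receptor Bmpr1a. Glands of these double mutants bear tumors. Control glands came from mice that carry K14-Cre and the R26-EYFP reporter but neither floxed allele, and the double mutants carry K14-Cre and R26-EYFP as well, so the groups differ in the 2 floxed alleles and in what followed from them. All mice had a C57BL/6 background, and both sexes were used. Because Cre is active where keratin 14 is or was expressed, the alleles recombine in epithelial cells, and differences in blood vessels or immune cells are differences between glands and not between recombined and unrecombined cells.

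Drop-seq, which counts the 3' ends of transcripts in droplets as unique molecular identifiers (UMIs), was run on 26 glands. These were 6 control and 7 double-mutant glands at postnatal day 40 (P40) and 6 control and 7 double-mutant glands at P90, each from sorted, methanol-fixed cells free of DAPI. CITE-seq, which adds antibody tags to the same readout, was run on fresh live cells from 2 control and 2 double-mutant glands at P70, with human HEK cells added as a spike-in. Bulk RNA-seq covered whole glands with 1 control library at P70 and 1 double-mutant library at P100. All 4 CITE-seq glands and all 26 Drop-seq glands entered as separate libraries, and p-values below measure the spread between glands.

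Interferons are secreted proteins that cells release when they sense viral or misplaced nucleic acid, and type I and type III interferons signal through JAK kinases to a complex holding IRF9 that enters the nucleus. There it binds the interferon-stimulated response element (ISRE), a paired GAAA motif, and switches on a wide set of genes, among them Irf7, which in turn amplifies interferon production. The products act inside the cell: ISG15 is a ubiquitin-like modifier, RSAD2 (viperin) makes a nucleotide that stops viral polymerases, the IFIT proteins bind foreign RNA, and the IFITM proteins hinder viruses from fusing with membranes. In barrier epithelia and in vessels some of these genes are transcribed at a low level without infection.

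The promoters of the members are shown because the ISRE motif is what these genes are known to share. The motif GAAANNGAAA or its reverse complement TTTCNNTTTC, searched on both strands with overlapping matches counted, was present in 1131 of 32851 RefSeq promoters (3.44%), each running from 250 bases before to 50 bases after the annotated start on GRCm38.p6. All 9 members matched a promoter, and 5 of the 9 held the motif (Isg15, Rsad2, Ifit1, Ifit3 and Ifitm3). Of the 60 other interferon-stimulated genes listed, 48 matched a promoter and 20 held it (41.7%). The stretches below are the parts of the members' promoters with the matches, on the strand of the gene, and capitals mark the matched bases. They lie at chr4:156200865-156200906 for Isg15 (minus strand), chr12:26456553-26456582 for Rsad2 (minus), chr19:34640775-34640823 for Ifit1 (plus), chr19:34583363-34583426 for Ifit3 (plus) and chr7:141010706-141010752 for Ifitm3 (minus).
Isg15: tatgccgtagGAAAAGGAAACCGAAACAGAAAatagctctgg
Rsad2: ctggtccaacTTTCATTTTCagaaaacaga
Ifit1: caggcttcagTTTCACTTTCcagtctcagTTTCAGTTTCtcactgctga
Ifit3: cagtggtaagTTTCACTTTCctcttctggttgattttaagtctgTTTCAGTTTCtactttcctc
Ifitm3: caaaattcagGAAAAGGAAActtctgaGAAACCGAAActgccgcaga

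Isg15 held 3 matches that run into one another between 78 and 66 bases before its start, and Rsad2 held 1 match 120 bases before its start. Ifit1 and Ifit3 each held 2 matches, 104 and 85 bases before the start of Ifit1 and 156 and 122 bases before that of Ifit3. The 2 matches of Ifitm3 lay just past its start, inside the transcribed part. The windows of Irf7, Irf9, Ifit2 and Ifitm1 held no match to these letters. A match is a description of the sequence and not a measured binding site.

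Of 26987 Drop-seq barcodes 23346 cells were kept, 10743 from control and 12603 from double-mutant glands, with a median of 2062 UMIs per control cell and 1151 per double-mutant cell. Control libraries totalled 1700712 to 7013325 UMIs and double-mutant libraries 777537 to 6522928. CITE-seq kept 2535 of 3095 barcodes. Of 435 pairs of libraries, 20 shared a barcode, and no pair shared more than 1. The sex genes of 2 Drop-seq libraries, double-mutant P40 replicate 1 and double-mutant P90 replicate 5, went against their labels. All 4 CITE-seq libraries held transcripts of both sexes. Xist and Y-linked genes had 151 and 60 UMIs in control replicate 1, which is labelled male, and 165 and 71 in control replicate 2. They had 193 and 16 UMIs in double-mutant replicate 1 and 154 and 14 in replicate 2. Of the Drop-seq libraries double-mutant P90 replicate 4 had the highest share of ribosomal protein UMIs (8.71%). The targeted genes could not check the labels, since 3' tags lie outside the floxed parts: median Ctnnb1 was 41.7 CPM (the UMIs of a gene in every 1000000 UMIs of the gland) in control and 109 CPM in double-mutant glands, and median Bmpr1a was 16.7 and 22 CPM.

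The first question was whether the members differed by genotype in whole glands. All 9 were higher in the double mutants, with a median log2 fold change of 1.89 over the members against 0.02 over the 10940 genes tested (edgeR quasi-likelihood test on summed UMIs, adjusted for sex and stage, Benjamini-Hochberg over all genes, threshold 0.05). Of all genes tested, 14.5% were called higher. The low-count filter behind this fit was set over the 4 groups of genotype and stage. Set over both genotypes, it left out Ifit2, Ifit3 and Ifitm1, and the 6 members it tested were all called, against 14% of 8768 genes. In whole-gland sums fewer cells of a type and less RNA per cell cannot be told apart.

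Irf7, the factor that amplifies interferon production, had the smallest overlap between genotypes of the 9. It ran from 1.43 to 8.62 CPM in the 12 control glands (median 4.13) and from 8.14 to 111 CPM in the 14 double-mutant glands (median 21.9), a log2 fold change of 2.13 (SE 0.23, adjusted p = 2.2e-06). Of the double-mutant glands 13 lay above the highest control, and the remaining one lay within the control range. Irf9, the DNA-binding part of the complex that answers interferon, changed least. It ran from 9.50 to 25 CPM in control (median 16.5) and from 13.7 to 96.8 CPM in double-mutant glands (median 32.0), with a log2 fold change of 0.63 (SE 0.13, adjusted p = 0.00242) and 12 of 14 double-mutant glands above every control.

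Isg15, the ubiquitin-like modifier, ran from 1.57 to 31.0 CPM in control (median 7.38) and from 11.8 to 166 CPM in double-mutant glands (median 41.7). Its log2 fold change was 1.89 (SE 0.35, adjusted p = 0.000686). The groups overlapped, with 9 of 14 double-mutant glands above the highest control. Rsad2, which encodes viperin, ran from 0.950 to 15.1 CPM in control (median 3.03) and from 6.11 to 112 CPM in double-mutant glands (median 18.9). Its log2 fold change was 2.09 (SE 0.37, adjusted p = 0.000574), and 12 of 14 double-mutant glands exceeded every control.

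The RNA-binding IFIT genes lie side by side on chromosome 19. Ifit1 had a median of 3.07 CPM in control (0.715 to 12.6) and 14.3 CPM in double-mutant glands (5.85 to 49.1), a log2 fold change of 1.73 (SE 0.29, adjusted p = 0.00033). Ifit3 had a median of 1.2 CPM in control (0 to 5.17) and 6.81 CPM in double-mutant glands (2.15 to 30), a log2 fold change of 2.10 (SE 0.44, adjusted p = 0.00191). For both genes 8 of 14 double-mutant glands lay above the highest control. Ifit2 was the lowest of the 3 in UMIs, 36 over all control and 107 over all double-mutant glands, and the least certain. Its median was 0.699 CPM in control (0 to 3.01) and 4.87 CPM in double-mutant glands (0 to 18.1), a log2 fold change of 1.44 (SE 0.50, adjusted p = 0.0409). Reads that near-identical copies share, such as those of Ifit3 and Ifit3b or of the IFITM genes, could have been split between them by the authors' counting, so single members of these families are uncertain to that extent.

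Ifitm1 and Ifitm3, the membrane proteins, lie with Irf7 on chromosome 7 and differed in size of change. Ifitm1 was almost absent from control glands, with 13 UMIs in all and none in 5 of 12 glands (median 0.233 CPM, highest 1.76), and had 272 UMIs in double-mutant glands, where it ran from 0.255 to 58.6 CPM (median 7.35). Its log2 fold change of 4.08 (SE 0.66, adjusted p = 0.00023) was the largest of the 9, and 11 of 14 double-mutant glands lay above every control. Ifitm3 was detected in every gland, from 14.4 to 192 CPM in control (median 60.2) and from 76.9 to 685 CPM in double-mutant glands (median 253), a log2 fold change of 1.2 (SE 0.28, adjusted p = 0.00448). Its groups overlapped, with 9 double-mutant glands above the highest control.

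**Figure D1:**
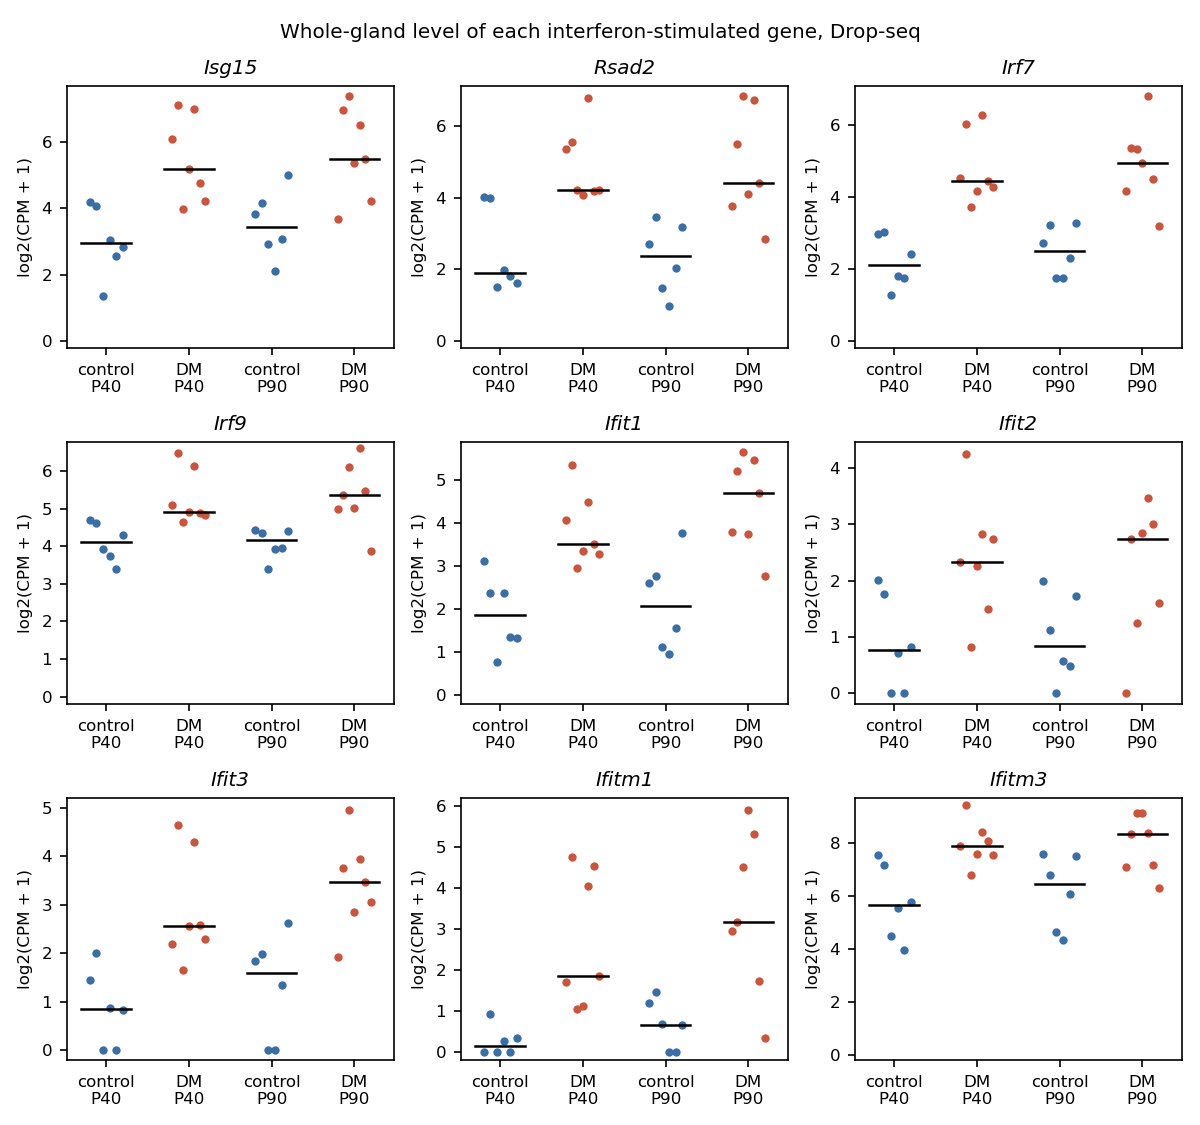
Level of each gene in each of the 26 Drop-seq glands as log2(CPM + 1), by genotype and stage; points are glands and lines are medians. In every panel the double-mutant medians lie above the control medians at both stages, and 13 of 14 double-mutant glands lie above the highest control for Irf7 against 8 of 14 for Ifit1 and Ifit3.

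The titles of the libraries carry 8 batch numbers, and 5 of these batches held both genotypes. For all 9 members the mean of the double-mutant glands was higher in 5 of 5 of these batches, which was also the case for 50.9% of all genes tested. Isg15, for example, averaged 4.94 and 146 CPM (control and double mutant) in batch 8, 19.2 and 39.9 CPM in batch 9, 16.6 and 39.4 CPM in batch 12, 1.57 and 56.6 CPM in batch 13 and 6.13 and 17.5 CPM in batch 14. With batch as a term in the edgeR fit 6 of the 9 were called, against 2.48% of genes called higher, and the calls lost were Irf9 (log2 fold change 0.39, adjusted p = 0.206), Ifit2 (1.82, adjusted p = 0.0906) and Ifit3 (2.11, adjusted p = 0.0665). Without both libraries whose sex genes went against the label, or without the library of high ribosomal share, 8 of 9 were called and Ifit2 was not. Ifit2 also lost its call in 16 of 26 fits that left out 1 gland, while the other 8 members kept theirs in all 26.

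At P40 the double mutants exceeded control by a median log2 fold change of 1.77 over the members, and Isg15 (1.91, SE 0.49, adjusted p = 0.0492), Irf7 (2.13, SE 0.33, adjusted p = 0.00171) and Ifitm1 (4.24, SE 0.97, adjusted p = 0.0289) passed the edgeR test. These are 3 of 9 members against 1.31% of all genes called higher. The genotypes did not overlap at P40 for Rsad2 (highest control 15.1 CPM, lowest double mutant 15.7 CPM), Irf7 (7.20 and 12.1 CPM) and Ifitm1 (0.900 and 1.07 CPM), 3 of 9 members against 2.21% of all genes. The number of calls depended on the tool: 7 of 9 members were called with DESeq2, without a low-count filter or with the replicate block, and 2 without both libraries against their sex label.

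At P90 the edgeR test called 7 of 9 members higher, against 5.46% of all genes. Their log2 fold changes ran from 0.81 for Irf9 (SE 0.19, adjusted p = 0.0131) to 3.96 for Ifitm1 (SE 0.93, adjusted p = 0.0125), with Rsad2 at 2.47 (SE 0.56, adjusted p = 0.00963). Ifit2 (1.30, adjusted p = 0.279) and Ifitm3 (1.19, adjusted p = 0.0626) did not pass. The difference between the stages was tested as an interaction of genotype and stage, and 0 of 9 members passed in edgeR (0 at an unadjusted p under 0.05), where 0.00914% of all genes were called. The widest interaction was that of Rsad2, at 0.69 (SE 0.74, adjusted p = 0.98), and that of Irf7 was 0.01 (SE 0.46, adjusted p = 1). Standard errors ran from 0.26 for Irf9 to 1.10 for Ifitm1, and differences between the stages below about 2 of them could not be seen at this number of glands.

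Within the double mutants 0 of 9 members differed between P90 and P40 in edgeR (0 at an unadjusted p under 0.05), and 0% of all genes were called. Isg15 had a median of 35.2 CPM at P40 (14.7 to 138) and 43.6 CPM at P90 (11.8 to 166), and the ranges overlapped almost wholly. Within control glands 0 of 9 members passed (1 at an unadjusted p under 0.05, Irf9 at -0.45), against 5.06% of all genes. Control glands of the 2 stages were made in different batches, so stage and batch cannot be told apart there.

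The genes that surround the members in the pathway were taken from lists. Of 16 receptor and transducer genes tested, 6 rose in the double mutants and none fell (median log2 fold change 0.53), among them Irf5 (1.22), Irf1 (0.95) and Stat2 (0.81), the last being a partner of IRF9. Of 10 sensors of nucleic acid tested out of 12 listed, 6 rose (median 1.05), with Zbp1 at 2.34, Tlr7 at 1.76 and Dhx58 at 1.74. Of 7 negative regulators 3 rose (median 0.48), led by Usp18, the protease that removes ISG15 from proteins, at 2.14. All of these are edgeR calls in the whole-gland fit, where 14.5% of all genes were called higher. With the myeloid-like cells described below left out of the sums, 8.97% of all genes were called higher. There 3 of 15 receptor and transducer genes rose and 1 fell (median 0.07). Of 6 sensors 2 rose (median 0.29), and of 7 negative regulators 3 rose (median 0.39).

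Of 60 other interferon-stimulated genes 49 were tested, 36 rose and 1 fell (median log2 fold change 1.18). The largest changes were in Ms4a4c (3.08, SE 0.68), Oas1a (2.48, SE 0.42), which makes the second messenger that activates RNase L, the dynamin-like Mx2 (2.46, SE 0.39), Ifi44 (2.35, SE 0.28) and Rnf213 (2.17, SE 0.37), and the one that fell was Ifi27 (-0.75, SE 0.26, adjusted p = 0.0382). Without myeloid-like cells, 32 of 47 of these other interferon-stimulated genes rose and 0 fell (median 1.16). Transcripts of the interferons themselves were close to the limit of detection. Of 20 ligand genes listed, 4 had any UMI, and together they gave 18 of 39770363 UMIs in control and 44 of 31984735 in the double mutants. Ifng, the type II interferon, gave 9 and 29 of these and Ifnb1, a type I interferon, 8 and 13.

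Across the 26 glands the members varied together beyond genotype, stage and sex. On residuals from these 3 variables the 36 pairs of members had correlations from -0.0283 (Ifit2 and Ifitm1) to 0.777 (Isg15 and Ifit1), with a median of 0.480 over 26 glands. Ifitm1 had correlations of 0.0804 with Ifit3, 0.16 with Ifit1 and 0.555 with Irf7, and Ifit2 had 0.106 with Irf9, 0.251 with Rsad2 and 0.455 with Isg15. The genes whose residuals were most like those of the 9 members were Slfn2 (mean correlation 0.663), Bst2 (0.657), which encodes the virus-tethering protein CD317, Cxcl16 (0.647), Basp1 (0.646) and AW112010 (0.639). The points share library depth and cell composition. No correlation over pairs of all genes was set beside these values, so the covariation is not shown to be particular to the members.

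The next question was in which cells the members were transcribed. Kept cells fell into 31 clusters, formed without the members and the other listed interferon genes, and 15 types were named from marker genes with the ending "-like"; 5026 Drop-seq cells (21.5%) stayed unnamed. The named epithelial types include acinar-like cells, Klk ductal-like cells (kallikreins), Smgc/Esp ductal-like cells, ductal progenitor-like cells (Ascl3 and Foxi1), Dcpp and Clu luminal-like cells, basal-like and myoepithelial-like cells and CSC-like cells, which carry the Wnt target genes Axin2, Wif1 and Dkk4.

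The type with the highest mean level was read within each genotype, over types with at least 10 cells in at least 4 glands. These were 10 types in control and 14 in double-mutant glands, and a change of the top type was not tested. In control glands endothelial-like cells had the highest mean of 7 of the 9 members, among them Isg15 (334 CPM ± 224, SD, n = 8) and Rsad2 (259 CPM ± 168, n = 8), with Irf9 highest in myoepithelial-like and Ifitm1 in basal-like cells. In double-mutant glands this was so for 3 of the 9, Rsad2, Irf9 and Ifit2. There Isg15 averaged 240 CPM ± 291 (SD, n = 14) in Smgc/Esp ductal-like and 231 CPM in ductal progenitor-like cells beside 195 CPM in endothelial-like cells. Ifit1 averaged 117 CPM ± 150 (n = 12) in ductal progenitor-like and 81.4 CPM in Klk ductal-like beside 57.0 CPM in endothelial-like cells. Irf7 averaged 142 CPM ± 167 (n = 12) in ductal progenitor-like beside 71.3 CPM in endothelial-like cells. Ifit3 averaged 50.6 CPM ± 162 (n = 14) in Smgc/Esp ductal-like and 50.4 CPM in fibroblast-like beside 37.3 CPM in endothelial-like cells. CSC-like cells had the highest Ifitm1 (367 CPM ± 275, n = 9) and myoepithelial-like cells the highest Ifitm3 (1621 CPM ± 833, n = 7, beside 1467 CPM in basal-like cells).

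With the glands of both genotypes pooled, the order for Isg15 ran from endothelial-like cells (246 CPM ± 195, SD, n = 22 glands) through Clu luminal-like (165 ± 103, n = 10), ductal progenitor-like (148 ± 190, n = 23), Smgc/Esp ductal-like (145 ± 243, n = 25) and myeloid-like cells (113 ± 97.3, n = 24). CSC-like (92.3 ± 136, n = 9), fibroblast-like (75.7 ± 94.4, n = 14), basal-like (66.8 ± 87.2, n = 21), Klk ductal-like (57.2 ± 84.2, n = 25), T/NK-like (56.1 ± 77.9, n = 15) and myoepithelial-like cells (43.4 ± 63.3, n = 14) followed. Dcpp luminal-like (25.7 ± 50.5, n = 14), acinar-like (8.48 ± 17.6, n = 26) and plasma/B-like cells (0, n = 6) closed it. Neighbours in the order could not be told apart: of 117 pairs of neighbouring types over the 9 members, 0 passed an exact or resampled sign-flip permutation test after adjustment.

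In double-mutant glands Rsad2 averaged 306 CPM in endothelial-like, 125 CPM in myeloid-like and 8.84 CPM in Klk ductal-like cells, where only 6 of its UMIs were found. Isg15 averaged 195, 157 and 100 CPM in the same types. Endothelial-like cells made up 2.91% of control and 5.59% of double-mutant cells and held 30.1% of the Isg15 UMIs of control glands but 10.6% of those of double-mutant glands. Myeloid-like cells held 12.2% and 18.3%, and Klk and Smgc/Esp ductal-like cells 11.6% and 6.38% in control and 11.4% each in double-mutant glands.

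Ifitm1 transcripts of the double mutants came mostly from a small type. CSC-like cells were 2.63% of double-mutant cells and held 154 of the 272 Ifitm1 UMIs of double-mutant glands (56.6%). In the 9 double-mutant glands with at least 10 such cells Ifitm1 had 553, 645, 275, 158 and 47.9 CPM in P90 replicates 3, 4, 5, 2 and 6 and 870, 430, 174 and 154 CPM in P40 replicates 6, 2, 5 and 1. All 9 glands thus had the transcript, and both ends of the range came from libraries with no doubt about sex or ribosomal share. After thinning to 500 UMIs, 18.1% of CSC-like cells had an Ifitm1 UMI (95% exact binomial interval 13.3 to 23.8), at a median depth of 748 UMIs before thinning. In double-mutant glands the share was 0.403% of Smgc/Esp ductal-like cells (0.0489 to 1.45) and 0.0913% of Klk ductal-like cells (0.00231 to 0.508). It was 0% of double-mutant acinar-like cells (0 to 0.258), at median depths of 1158, 1426 and 3590 UMIs for these 3 types. Fibroblast-like cells averaged 81.9 CPM ± 147 (SD, n = 12), myeloid-like cells 27.5 CPM ± 21.7 (n = 14) and basal-like cells 14.8 CPM ± 22.5 (n = 13) in double-mutant glands, and ductal progenitor-like cells had no Ifitm1 UMI. No control gland had 10 CSC-like cells, so a genotype difference of Ifitm1 in this type could not be measured.

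Whether the whole-gland difference was present inside cell types was tested by summing each type's UMIs per gland. With the low-count filter used for whole glands few members had enough UMIs: Ifitm3 was called higher in acinar-like (log2 fold change 1.89), Klk ductal-like (1.5), Smgc/Esp ductal-like (1.70), Dcpp luminal-like (1.92) and myeloid-like cells (0.87, adjusted p = 0.00615, edgeR), and in the last it was the only member tested, where 5.98% of genes were called higher. A filter of at least 20 UMIs over all glands, which does not look at the groups, was added after seeing the data and let more members in. All calls it gave were higher in the double mutants. Members with few control UMIs entered it through their double-mutant UMIs, so the counts of members describe these types and do not measure how many members changed; called members with fewer than 20 control UMIs are named as such. Ifit2 was tested in 2 types (endothelial-like and myeloid-like), Ifitm1 in 1 (myeloid-like) and Ifit3 in 3.

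In Klk ductal-like cells, of 12 control and 13 double-mutant glands, 4 of 5 members tested rose, against 0.324% of genes, and all 5 had at least 20 control UMIs: Isg15 (2.44, SE 0.40, adjusted p = 0.000101, edgeR), Ifit1 (2.08, SE 0.38, adjusted p = 0.000455, edgeR), Irf7 (1.71, SE 0.33, adjusted p = 0.00113, edgeR) and Ifitm3 (1.32, SE 0.23, adjusted p = 0.000368, edgeR). Isg15 there ran from 2.63 to 29.3 CPM in control (median 6.77) and from 0 to 287 CPM in double-mutant glands (median 68.7). The groups overlapped, with double-mutant P90 replicates 1 and 5 at 0. The same 4 calls stood in all 25 fits that left out 1 gland, and with a batch term Isg15 (2.66) and Ifit1 (2.68) remained.

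In Smgc/Esp ductal-like cells, of 11 control and 14 double-mutant glands, 6 of 7 members were called higher, against 0.659% of genes. Of these 6, Rsad2, Irf7 and Ifit3 had fewer than 20 control UMIs and Isg15, Irf9 and Ifitm3 had more. Isg15 ran from 0 to 189 CPM in control (median 8.75) and from 0 to 1028 CPM in double-mutant glands (median 122), a log2 fold change of 2.47 (SE 0.51, adjusted p = 0.00109, edgeR). Irf7 (2.65), Ifitm3 (1.51) and Irf9 (1.41) were called as well. Rsad2 had 0 UMIs of 1074746 in control and 25 of 962709 in double-mutant glands, which is at least 9.30-fold higher when 3 UMIs are allowed over the control glands together. Ifit3 had 3 and 34 UMIs, a ratio of 12.7 (95% counting interval 3.98 to 64.4). These calls leaned on single glands and on batch: without double-mutant P90 replicate 7, whose 1028 CPM of Isg15 is the highest value, 3 of the 5 members still tested passed, and with a batch term 0 of 7 did.

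Among the other epithelial types, Dcpp luminal-like cells had 3 of 5 members called higher against 0.499% of genes, of which Ifitm3 (1.87, SE 0.34) had at least 20 control UMIs and Isg15 (2.54, SE 0.61) and Rsad2 had fewer. Rsad2 there had 0 UMIs in the 5 control glands and 36 in the 9 double-mutant ones, at least 19.0-fold higher on the same allowance. Acinar-like cells had 2 of 5 against 0.456%, Ifitm3 (1.71, SE 0.27) and, with fewer than 20 control UMIs, Irf7 (2.46, SE 0.48). Basal-like cells had 2 of 5 against 3.09%, both with fewer than 20 control UMIs, Isg15 (2.82, SE 0.66) and Ifit1, whose 3 and 41 UMIs give a ratio of 7.20 (95% counting interval 2.30 to 36.3). Ifitm3 there had 1437 CPM ± 567 (SD, n = 8) in control and 1467 CPM ± 475 (n = 13) in double-mutant glands (log2 fold change 0.07, SE 0.29). Ductal progenitor-like cells had 1 of 5 against 0.211%, Irf7 (1.77, SE 0.44), again with fewer than 20 control UMIs, and myoepithelial-like cells 0 of 2 against 0.0459% (edgeR; 0 at an unadjusted p under 0.05).

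In myeloid-like cells 2 of 9 members were called higher against 2.82% of genes, Irf7, with fewer than 20 control UMIs (1.95, SE 0.43, adjusted p = 0.00353, edgeR), and Ifitm3 (1.09, SE 0.24, adjusted p = 0.00329, edgeR), with Isg15 at 1.17 (adjusted p = 0.0591) and Ifitm1 at 2.19 (adjusted p = 0.0631). Isg15 ran from 16.2 to 131 CPM in 10 control glands (median 48.7) and from 24.1 to 354 CPM in 14 double-mutant glands (median 162). With a batch term 1 of 9 was called. In T/NK-like cells 0 of 3 members passed, against 0% of genes (edgeR; 0 at an unadjusted p under 0.05).

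In endothelial-like cells no member was called. Of 8 members tested 0 passed, against 0.127% of genes (edgeR; 1 at an unadjusted p under 0.05, Isg15), and the median log2 fold change of the members was -0.171 against 0.0906 over all genes. Isg15 ran from 121 to 769 CPM in 8 control glands (median 260) and from 37.8 to 603 CPM in 14 double-mutant glands (median 125), so that here the control median was the higher one (log2 fold change -0.82, SE 0.34, adjusted p = 0.602, edgeR). Rsad2 (0.17, SE 0.34), Ifitm3 (-0.28, SE 0.28) and Ifit1 (-0.65, SE 0.43) had differences within 2 standard errors of 0.

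**Figure D2:**
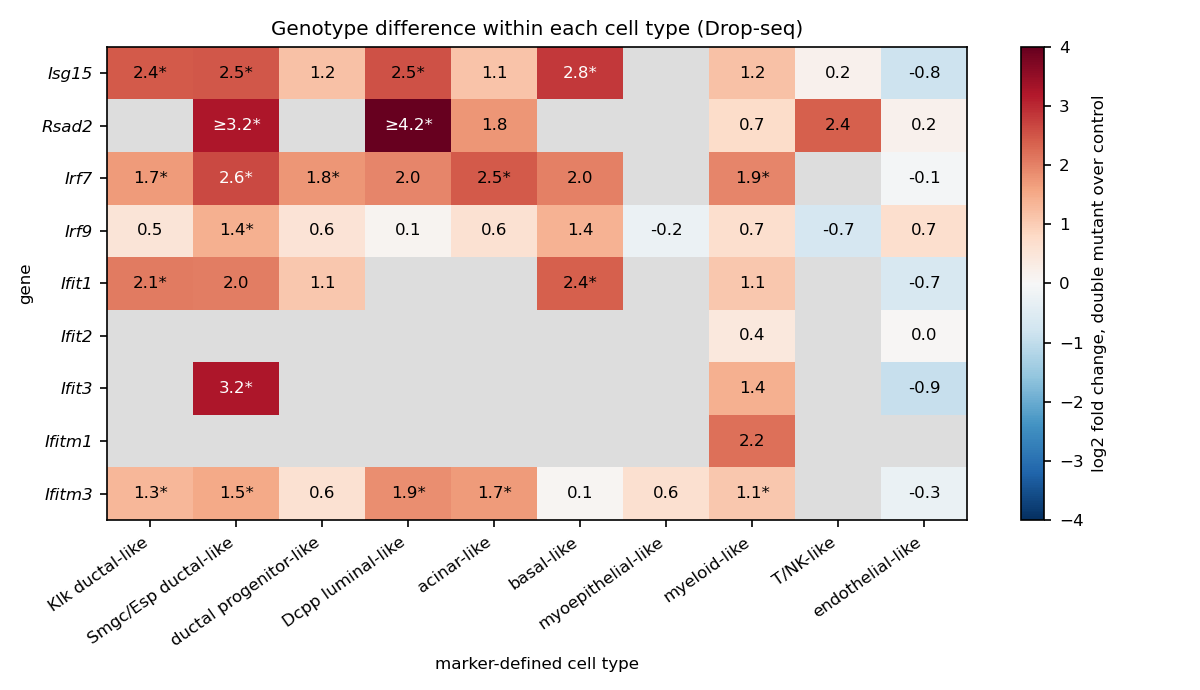
Log2 fold change between double-mutant and control glands of each gene within each cell type, for genes of at least 20 UMIs over the glands of the type; asterisks mark an edgeR adjusted p under 0.05, the sign ≥ marks a lower bound where no control gland had a UMI, and grey cells were not tested. The Klk and Smgc/Esp ductal-like columns together hold 10 asterisks and the endothelial-like column holds none, with Isg15 at -0.8.

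The difference between types was itself tested, as the genotype difference of log2(CPM + 10) in a type minus that in endothelial-like cells of the same glands, with limma across all genes of at least 20 UMIs in the type and Benjamini-Hochberg adjustment over 54861 pairs of gene and type in 7 types. Of 41 pairs with a member 1 passed, against 0.0456% of all pairs. This was Isg15 in basal-like cells, where the difference exceeded that in endothelial-like cells by 3.12 (SE 0.60, adjusted p = 0.0207, limma, 8 control and 13 double-mutant glands), and without both libraries against their sex label it was 3.07 (adjusted p = 0.0531). Of the members' pairs 36 (87.8%) had the larger difference outside the vessels, and so had 41.7% of all pairs; pairs of 1 gene share the endothelial-like values, and members entered partly through their double-mutant UMIs, so this count is a description. For Isg15 the excess was 3.25 (SE 0.74, adjusted p = 0.0939) in Smgc/Esp ductal-like, 2.51 (SE 0.60, adjusted p = 0.171) in Klk ductal-like and 1.96 (SE 0.50, adjusted p = 0.208) in myeloid-like cells, and for Ifit1 it was 2.77 (SE 0.62, adjusted p = 0.113) in Klk ductal-like cells. At an unadjusted p under 0.05 (limma) were 21 of the 41 pairs with a member, and no such share over all pairs was set beside this count. A difference between ductal and endothelial-like cells was thus not shown after adjustment over all pairs of gene and type.

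**Figure D3:**
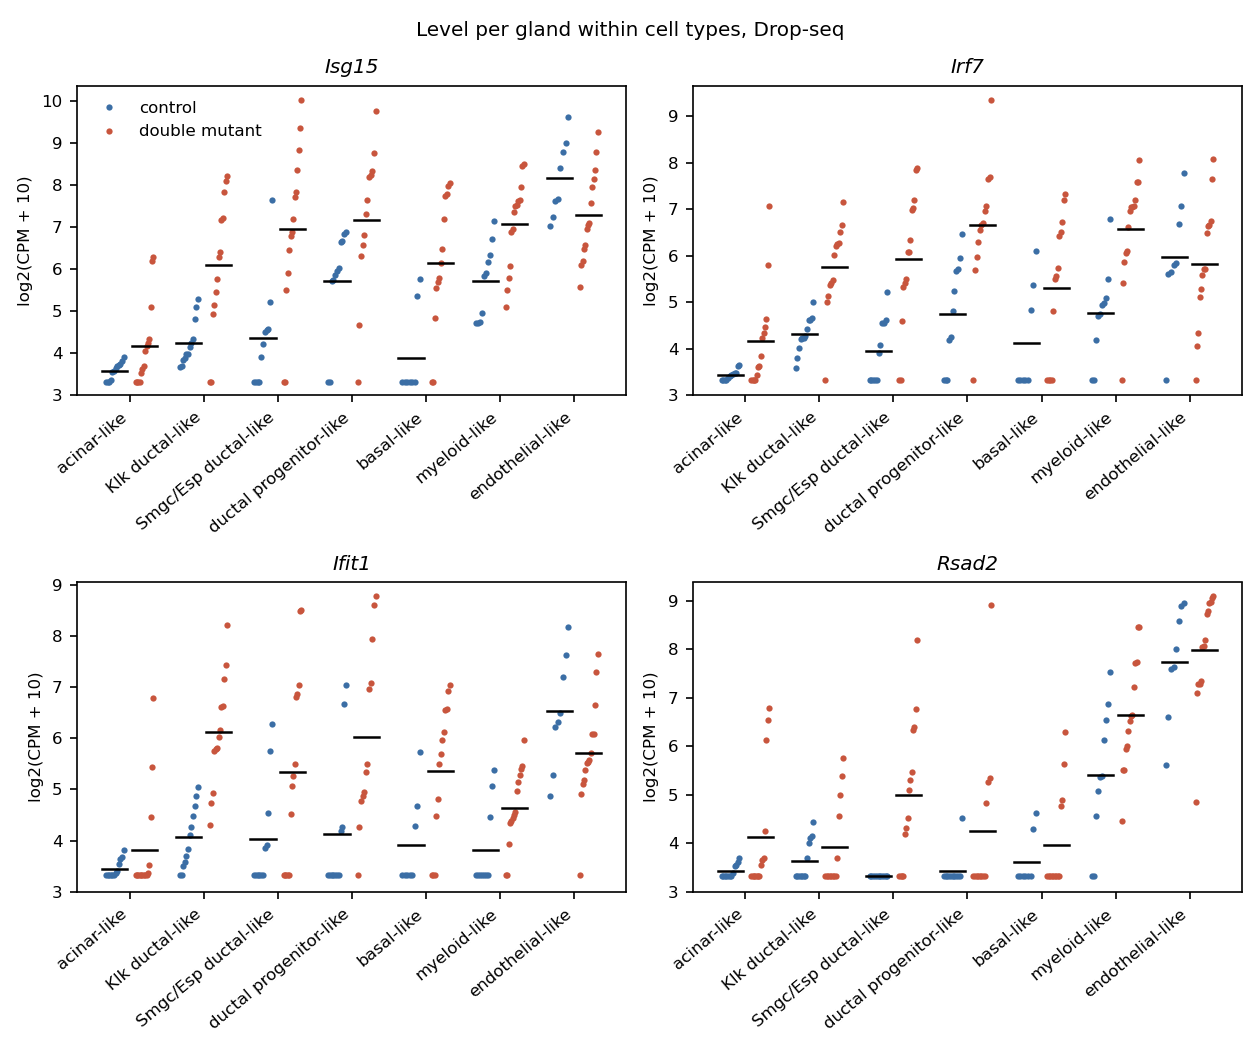
Level per gland of Isg15, Irf7, Ifit1 and Rsad2 as log2(CPM + 10) within 7 cell types; each point is 1 gland with at least 10 cells of the type, sorted by value, and lines are means. For Isg15 the double-mutant points lie above most controls in duct, basal-like and myeloid-like cells, while in endothelial-like cells the control mean is the higher one.

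Shares of cells with a transcript were compared at equal depth. Cells were thinned to 500 UMIs and those with fewer were left out, which removed more double-mutant than control cells: 860 of 1995 and 90 of 590 myeloid-like, 291 of 704 and 43 of 313 endothelial-like, 408 of 1006 and 25 of 384 basal-like and 50 of 1145 and 60 of 2250 Klk ductal-like cells. A UMI of any of the 9 genes was found in 5.48% of control and 15.6% of double-mutant Klk ductal-like cells (95% exact binomial intervals 4.56 to 6.52 and 13.5 to 17.9). It was found in 10.6% and 30.8% of Smgc/Esp ductal-like cells (8.10 to 13.6 and 26.8 to 35.1), in 12.8% and 23.8% of myeloid-like cells (10 to 16.0 and 21.3 to 26.4) and in 57.4% and 60.5% of endothelial-like cells (51.3 to 63.4 and 55.6 to 65.3). The endothelial-like cells had the highest share in both genotypes and overlapping intervals, and the shares of basal-like cells were 53.5% and 53.7%. In both types this share was mostly Ifitm3, which alone had a UMI in 46.3% of control endothelial-like and 51.5% of control basal-like cells. For Isg15 alone the shares were 0.836% and 4.85% in basal-like (0.173 to 2.42 and 3.27 to 6.89), 0.502% and 3.20% in Klk ductal-like (0.251 to 0.897 and 2.24 to 4.42) and 13.7% and 11.1% in endothelial-like cells (9.84 to 18.4 and 8.27 to 14.6). For any of the 9 genes, acinar-like cells had the lowest shares, 1.13% and 2.95%, at median depths of 4182 and 3590 UMIs before thinning. Without thinning the shares were 14.8% and 33.1% in Klk ductal-like and 80.2% and 65.5% in endothelial-like cells, whose median depth was 950 UMIs in control and 604 in double-mutant cells. Intervals cover counting error only.

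**Figure D4:**
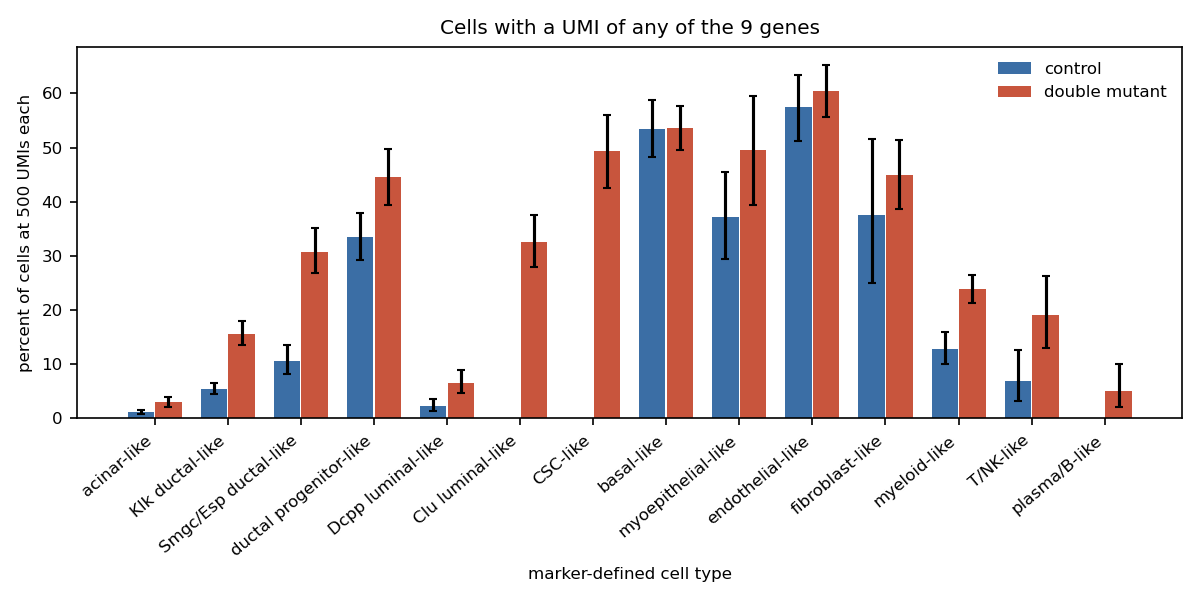
Percent of cells with at least 1 UMI of any of the 9 genes after thinning to 500 UMIs, with cells under 500 UMIs left out, by cell type and genotype; bars start at 0, error bars are 95% exact binomial intervals, and types with a single bar had too few control cells. The bars of double-mutant Klk and Smgc/Esp ductal-like cells stand well above their controls, at 15.6% against 5.48% and 30.8% against 10.6%, and those of endothelial-like cells overlap in their intervals.

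The makeup of the types moved with genotype too. Of Klk ductal-like cells, cluster 12 held 31.7% in control and 5.41% in double-mutant glands and cluster 6 held 29.0% and 54.1%. Within each cluster pooled Isg15 was higher in the double mutants, at 7.44 and 40.6 CPM in cluster 5, 22.9 and 109 CPM in cluster 6 and 3.44 and 13 CPM in cluster 12. Of myeloid-like cells, cluster 21 held 3.56% and 14.9%, and in the larger cluster 0 pooled Irf7 was 19.8 and 108 CPM.

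Myeloid-like cells also took a larger share of the double-mutant glands. Their share was 5.43% ± 4.28 (SD, n = 12) in control (0.935 to 12.5) and 16.0% ± 8.81 (n = 14) in the double mutants (6.29 to 31.8), a difference of 10.6 percentage points (two-sided permutation p = 9.80e-04, and 0.00122 when permuted within batches). Summed over all 10 markers of these cells, whole glands had 37.8 to 562 CPM in control and 314 to 3684 CPM in double-mutant glands. With the myeloid-like cells left out of the sums, 8 of 8 members tested were called higher in whole glands, against 8.97% of genes: Isg15 at 1.97 (SE 0.36), Irf7 at 2.0 (SE 0.22), Rsad2 at 2.18 (SE 0.44), Ifitm1 at 4.28 (SE 0.68) and the rest between 0.70 and 2.01 (edgeR). Ifit2 had too few UMIs left. Inside Klk ductal-like cells the 10 myeloid markers summed to 19.4 to 108 CPM in control (all 10 with a UMI) and 13.7 to 219 CPM in double-mutant glands (9 with a UMI, Fcgr3 at 0). The plasma and B cell list held 6 symbols. Igj among them is an older name of Jchain and had no UMI in any Drop-seq gland, so it does not count as an undetected marker. In Klk ductal-like cells the list summed to 0 to 27.6 CPM in control (median 4.31, 3 symbols with a UMI, Mzb1 and Cd79a at 0). In double-mutant glands it summed there to 6.85 to 353 CPM (median 84.9, 2 symbols with a UMI, Mzb1, Ighm and Cd79a at 0). In Smgc/Esp ductal-like cells the markers of this list summed to 0 to 243 CPM in control (median 0, Mzb1 and Ighm at 0) and 0 to 339 CPM in double-mutant glands (median 47.5, Mzb1 and Cd79a at 0). In basal-like cells their median was 4.75 and 148 CPM (highest 78.0 and 286 CPM), and that of the 10 myeloid markers was 60.7 and 228 CPM (highest 871 and 376 CPM). In acinar-like cells the plasma and B cell markers had a median of 2.17 and 31.9 CPM and in Dcpp luminal-like cells of 1.56 and 64.9 CPM. The part of these transcripts in the results within epithelial types was not tested. In Klk ductal-like cells the 7 endothelial markers summed to at most 18.3 CPM in control and 44.5 CPM in double-mutant glands, and in whole glands to a median of 36.7 and 180 CPM. Inside endothelial-like cells their median was 3712 CPM in control and 7189 CPM in double-mutant glands. The myeloid markers had a median of 432 and 151 CPM there, and the plasma and B cell markers of 34.1 and 103 CPM. The part of these differences in the endothelial-like results was not tested.

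CITE-seq gave a second set of glands, at P70 and without fixation. Isg15 had 17.7 and 8.61 CPM in the 2 control and 53.6 and 70.1 CPM in the 2 double-mutant glands. Irf7 had 6.86 and 4.99 CPM against 29.0 and 28.3 CPM, and Ifitm1 1.14 and 0.453 CPM against 23.6 and 44.8 CPM. For each of these genes the genotypes did not overlap, and the same held for the other 6 members, as it did for 63.7% of all genes tested, among them Rsad2 (6.86 and 1.36 CPM against 34.5 and 13.4 CPM), Irf9 (19.4 and 20.4 CPM against 33.6 and 43.3 CPM) and Ifitm3 at 127 and 106 CPM against 391 and 504 CPM. Of 8 members tested 4 were called higher by edgeR, against 9.24% of genes: Isg15 (1.53, SE 0.38, adjusted p = 0.0365), Irf7 (1.58, SE 0.38, adjusted p = 0.0325), Ifitm1 (4.59, SE 0.61, adjusted p = 0.00658) and Ifitm3 (1.22, SE 0.26, adjusted p = 0.0233). Rsad2 (1.99, adjusted p = 0.0921), Ifit3 (1.36, adjusted p = 0.0921), Ifit2 (0.81, adjusted p = 0.411) and Irf9 (0.21, adjusted p = 0.657) did not pass, and Ifit1 was too low to test. With 2 glands a group the calls depended on single libraries: 1 member was called without double-mutant replicate 1 or without control replicate 2, 2 without double-mutant replicate 2 and 4 without control replicate 1. Both double-mutant glands and 1 of the 2 control glands were female by label.

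In CITE-seq endothelial-like cells Isg15 had 710 CPM in control replicate 1 (11 UMIs in 27 cells), beside 284 and 85.5 CPM (4 and 1 UMIs) in the double-mutant glands. Control replicate 2 had too few endothelial-like cells for a value, so only 1 control gland stands here, and its UMIs are few. In myeloid-like cells it had 53.4 and 73.1 CPM in control and 202 and 108 CPM in double-mutant glands. At the protein level the antibody against CD317, the product of the interferon-inducible gene Bst2, was set against the mean of the isotype control antibodies. Over all cells it had 0.665 and 0.843 times that mean in control and 0.864 and 0.712 times in double-mutant glands. The antibody against the surface proteins Ly6A/E had 0.438 and 0.539 times in control and 0.919 and 0.742 times in double-mutant glands, also below that mean. Bst2 transcripts of these cells were at 45.2 and 38.1 CPM in control and 137 and 170 CPM in double-mutant glands. These values were not tested. In endothelial-like cells CD317 reached 4.47 times the isotype mean in control replicate 1, the only control gland with enough of these cells. It had 1.99 and 0.507 times in those of the double-mutant glands.

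Bulk RNA-seq compared 1 control library at P70 with 1 double-mutant library at P100, so genotype and age cannot be told apart and there is no replicate check. Of the 9 members 1 was at least 2-fold higher in the double mutant, against 4.02% of 8863 genes of at least 1 TPM (reads scaled to gene length and to library size) in either library: Ifitm1, with 12 and 68 reads (0.279 and 1.59 TPM, a ratio of 5.63 in CPM, 95% counting interval 3.02 to 11.4). Ifitm3 was 1.76-fold higher (30.4 and 53.4 TPM), Ifit1 1.53-fold (1.30 and 1.99 TPM) and Ifit3 1.51-fold (1.70 and 2.57 TPM). Isg15 (4.17 and 5.09 TPM) and Irf7 (3.07 and 3.40 TPM) had ratios of 1.22 and 1.11, with counting intervals of the CPM ratio that include 1 (0.941 to 1.54 and 0.945 to 1.26). Irf9, at 3.87 and 3.30 TPM, and Ifit2, at 0.537 and 0.398 TPM, were lower in the double-mutant library. The median log2 ratio was 0.287 over the members and -0.283 over those 8863 genes. Rsad2 (0.552 and 0.575 TPM) and Ifit2 were below 1 TPM in both libraries. On the log2 scale the CPM ratios of Isg15, Rsad2 and Irf7 were 0.27, 0.04 and 0.13 in this pair of intact glands, beside 1.89, 2.09 and 2.13 in the 26 dissociated glands. The intact glands differ from the dissociated ones in sorting and fixation, and the part of these steps was not tested.

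**Figure D5:**
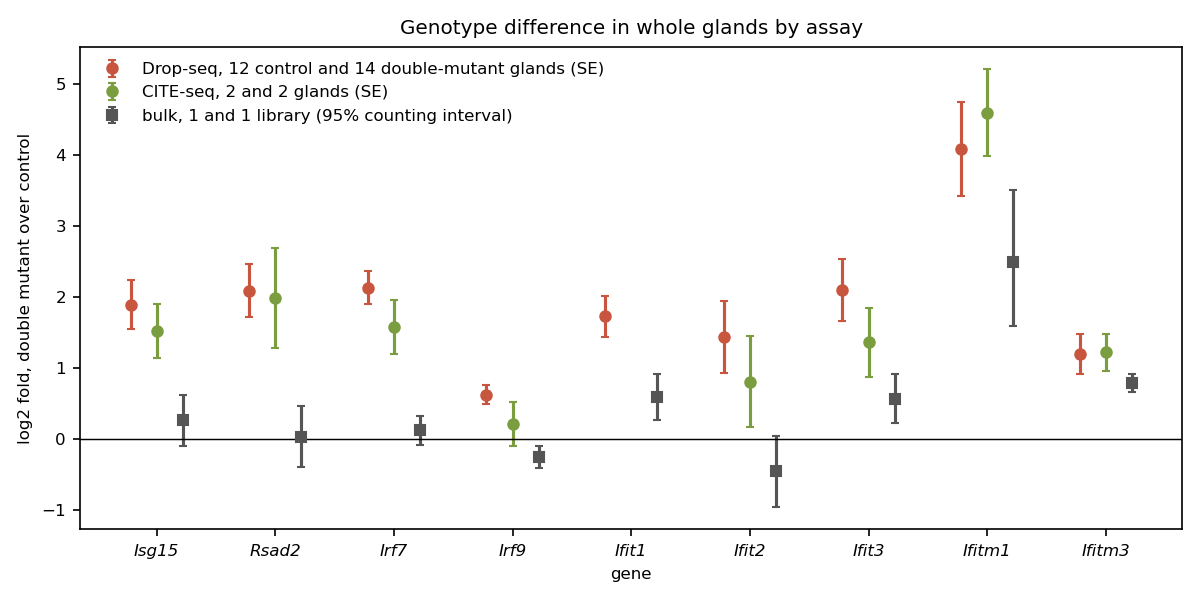
Log2 fold difference of each gene between double-mutant and control whole glands in Drop-seq (12 and 14 glands, bars are SE), CITE-seq (2 and 2 glands, bars are SE; Ifit1 not tested) and bulk RNA-seq (1 and 1 library, bars are 95% counting intervals of the CPM ratio). Ifitm1 is the highest in all 3 assays, at 4.08, 4.59 and 2.49, while the bulk values of Isg15, Rsad2 and Irf7 lie near 0.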

How the data were processed

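Drop-seq and CITE-seq tables held UMI counts per gene and cell, deposited by the authors after alignment with STAR to mm10 and the Drop-seq tools, unnormalized, 1 table per gland; antibody tags were deposited as counts per cell. Bulk reads were counted per gene by the authors with featureCounts 1.6.0 (file header), without a strand option although the kit marks strand, so antisense partners cannot be told apart. Cells with at least 100 genes and under 15% mitochondrial UMIs were kept (CITE-seq also under 2500 genes). The paper removed human cells from its CITE-seq data. No such step was run here, and whether HEK cells remain in the CITE-seq counts was not checked. Cells were clustered by leidenalg 0.10.2 (2000 variable genes, 30 components, 20 neighbors, resolution 1.0), with the listed interferon genes, sex genes and transgenes held out. Names needed 3 markers, a rule set after the clusters were seen. No doublet caller was run; the sort excluded cell clumps.

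For each gland, and for each type with at least 10 cells in it, UMIs were added up and tested with the quasi-likelihood test of edgeR 4.0.16 (R 4.3.3; filterByExpr, TMM, terms for sex and stage; Benjamini-Hochberg over all genes tested, threshold 0.05); SE is the absolute log2 fold change over the square root of F. DESeq2 1.42.0 was an alternative. Differences between types were fitted with limma 3.58.1 (trend and robust options), with genotype as the only term and none for sex or stage. Neighbouring types were compared by exact sign-flip permutations, or 100000 resamples where these were too many, on log2(CPM + 10), and on percent for thinned shares. The share of myeloid-like cells was permuted on percent with 100000 resamples. Exact intervals were computed with scipy 1.17.1. Fits were tested on simulated data. Where a group had no UMI, 3 UMIs over its glands stood for the limit of a count of 0; intervals are 95% and cover counting error only, and bulk intervals treat reads as independent. All 9 genes were named in every comparison; of each pathway list the called genes of largest change, at most 5 a direction, apart from 1 that is not reported here. The members and lists were chosen with earlier results of these data known. Libraries are separate glands by their labels.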

Additional observations from a re-analysis of the deposited data

Results flagged for a closer look

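In 36 groups of 6 or 7 glands (9 genes, 4 groups), 6 had a gland that lay apart from the others by Dixon's criterion. Chance gives this in about 1 of 20 groups where values are normally distributed. The criterion was run on CPM without a log scale, and all 6 glands were the highest of their group. The count of 6 is therefore not an excess over that rate. Rsad2 was at 109 CPM in double-mutant P40 replicate 5, with the nearest gland at 45.7 CPM. Irf7 was at 111 CPM in double-mutant P90 replicate 5, a library whose sex genes went against its label, with the nearest at 39.8 CPM. Ifit2 was at 18.1 CPM and Ifitm3 at 685 CPM in double-mutant P40 replicate 2, with the nearest glands at 6.15 and 344 CPM. Ifit3 was at 30 CPM in double-mutant P90 replicate 3, with the nearest at 14.5 CPM. Ifitm1 was at 0.900 CPM in control P40 replicate 2, with the nearest control at 0.256 CPM.

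The genotype difference of Isg15 within basal-like cells differed from that in endothelial-like cells of the same glands by 3.12 (difference of log2(CPM + 10) differences, SE 0.60, limma adjusted p = 0.0207 over all pairs of gene and type). Isg15 had 5 UMIs in control basal-like cells.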

How the results depend on the processing

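No called difference changed direction under any alternative run. Uncalled differences near 0 could change sign. That of Ifit2 in myeloid-like against endothelial-like cells was 0.07, and -0.03 without both libraries against their sex label. At P40, 3 members were called, and 7 with DESeq2, 7 without the low-count filter and 7 with the replicate block. Same replicate numbers did not pair the glands: 14 of 37 same-numbered pairs correlated above 0.1 (range -0.355 to 0.510), and with the replicate block 9 members were called in whole glands, 8 at P90 and 5 in CITE-seq. CITE-seq gave 4 calls, 2 with DESeq2 and 1 to 4 when 1 library was left out. In single types the filter of at least 20 UMIs, added after seeing the data, gave 2 calls in acinar-like, 4 in Klk ductal-like, 6 in Smgc/Esp ductal-like, 1 in ductal progenitor-like, 3 in Dcpp luminal-like and 2 in basal-like cells, against 1, 1, 1, 0, 1 and 0 with the planned filter. With a batch term these counts were 2 in Klk ductal-like, 0 in Smgc/Esp ductal-like, 0 in ductal progenitor-like and 0 in basal-like cells, and 1 in myeloid-like cells. Without both libraries against their sex label they were 0 in ductal progenitor-like and 1 in basal-like cells, and 3 to 7 in Smgc/Esp ductal-like cells when 1 gland was left out. In myeloid-like cells 1 call became 4 without a filter, 2 with at least 20 UMIs, 2 with at least 20 cells per gland and 0 with a batch term. Of neighbouring types in the order of levels 0 pairs differed, and 1 did with at least 20 cells per gland and 1 with thinned shares. Against endothelial-like cells 1 pair of member and type passed, and 0 without both libraries against their sex label. The cause of these changes was not tested. Ifit2 and Ifitm1 had too few UMIs to be tested in nearly all types.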
